A study of Mus musculus with 4 samples.

Results

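The 8 genes described are transcription factors of enteroendocrine cells, the hormone-secreting cells of the intestinal epithelium: Neurog3, Neurod1, Insm1, Nkx2-2, Pax4, Pax6, Isl1 and Fev. They were found by their gene name, or by the current symbol of their RefSeq accession, among 41174 non-control probes, and 10 probes (28 spots on each array) belonged to them. The samples were total RNA of cells freshly taken from the small intestine of mice (called enterocytes in the study's design), measured on 1-colour microarrays, 1 array for each of 2 wild-type (WT) and 2 IKKb(EE)IEC samples. In IKKb(EE)IEC mice the intestinal epithelium holds an always-active IKKb, the kinase that switches on NF-kB, and the WT mice were littermates without it. The line is known as a transgene under the villin promoter, which is active along the whole epithelium and not in endocrine cells alone. The labels state neither age nor how many mice went into a sample. The 2 samples of a genotype are stated to be biological replicates, and n = 2 limits the precision of every comparison.

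Enteroendocrine cells arise from crypt progenitors in which Notch signalling is low. Neurog3, a basic helix-loop-helix factor, starts the endocrine program for a short time, and the other factors act after it: Neurod1 and Insm1 in maturing cells, and Nkx2-2, Pax4, Pax6 and Isl1 in the choice among hormone types. Fev, an ETS factor best known from serotonin neurons, is found in late endocrine progenitors and serotonin-producing cells. Endocrine cells are a rare part of the epithelium, so transcripts of these factors are scarce in RNA of the whole cell layer. In such bulk samples, fewer endocrine cells and less RNA per cell cannot be told apart.

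The 250 bases upstream of the RefSeq start are shown for the 3 genes whose probes were well above background on every array (GRCm38.p6, from RefSeq, 5′ to 3′ on the strand of the gene). They lie at chr10:62132840-62133089 (plus strand) for Neurog3, chr13:116309689-116309938 (minus strand) for Isl1 and chr1:74885409-74885658 (minus strand) for Fev. Capitals mark the letters CANNTG, the E-box that basic helix-loop-helix factors such as Neurog3 and Neurod1 can bind, which was searched on both strands.
Neurog3 promoter: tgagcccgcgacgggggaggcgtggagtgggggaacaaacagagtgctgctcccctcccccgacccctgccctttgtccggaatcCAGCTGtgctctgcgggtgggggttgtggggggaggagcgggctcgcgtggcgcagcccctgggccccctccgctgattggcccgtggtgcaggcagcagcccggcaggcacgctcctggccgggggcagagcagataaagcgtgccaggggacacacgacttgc
Isl1 promoter: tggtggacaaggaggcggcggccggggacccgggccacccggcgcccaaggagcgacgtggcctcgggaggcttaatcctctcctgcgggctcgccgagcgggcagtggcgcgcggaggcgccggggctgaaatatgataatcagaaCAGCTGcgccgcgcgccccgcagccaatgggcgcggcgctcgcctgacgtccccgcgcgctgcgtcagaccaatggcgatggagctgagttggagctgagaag
Fev promoter: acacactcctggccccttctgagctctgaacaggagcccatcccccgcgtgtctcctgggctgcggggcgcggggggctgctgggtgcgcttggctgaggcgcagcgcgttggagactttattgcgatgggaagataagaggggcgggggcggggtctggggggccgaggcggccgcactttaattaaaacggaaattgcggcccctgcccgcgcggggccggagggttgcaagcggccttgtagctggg
The Neurog3 and Isl1 windows each held 1 E-box with the letters CAGCTG, and these letters were not in the Fev window. An E-box was in 66.2% of the 32851 promoter windows of this length, so its presence does not mark these genes. Among the other factors with a window, Neurod1 had 1 E-box and Nkx2-2 had 3, a count reached by 12.2% of all windows. The NF-kB consensus (kB site), which was present in 3.90% of all windows, was found in 1 place in the upstream one of 2 Pax6 windows. It was in none of the windows of Fev, Isl1, Neurog3, Neurod1 and Nkx2-2, and a match or its lack is a description of these letters only.

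Of the 8 factors, 3 (Fev, Neurog3 and Isl1) gave a signal well above background on all 4 arrays, Pax4 did so on 2, and Neurod1, Insm1, Nkx2-2 and Pax6 on none. In a comparison of all 12437 genes measured on at least 2 arrays, Fev fell in IKKb(EE)IEC, and Neurog3, Isl1 and Pax4 did not pass the threshold. The 4 measured factors had log2 fold changes between -0.76 and -0.62 (IKKb(EE)IEC minus WT), with a median of -0.70 against -0.12 over all genes tested. The threshold was an adjusted p below 0.05 by limma with Benjamini-Hochberg adjustment over all genes. By this rule 1 factor was lower and 0 were higher, where 7.20% of all genes were lower and 8.02% higher. At an unadjusted p below 0.05 were 2 of the other 3, as were 38.1% of all genes.

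The arrays differed in overall brightness, and this bears on every value of these dim genes. The 75th percentile of the processed signal, the background-subtracted spot intensity, was 60.3 and 66.1 for WT, below the 94.6 and 107.8 of IKKb(EE)IEC. Values were therefore set relative to each array's 75th percentile (normalized log2 signal, 0 at that percentile), a shift of 0.68 between genotypes. Spike-in control transcripts, measured by 8 probes with 32 spots each, differed by 0.33 between the same arrays. With the arrays aligned on these spike-ins the median of all genes moved from -0.12 to 0.22, and without any scaling it was 0.56. Higher genes made up 52.7% of all calls in the reported comparison, 63.2% with the array median, 72.1% with the repaired normexp background, 87.4% with the spike-ins and 95.9% without scaling. Fold changes are therefore also given relative to the median of all genes, which a constant shift of an array does not alter.

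Neurog3, the factor that starts the endocrine program, was measured by 1 probe on chromosome 10 (61529179 to 61529238, mm8). Its processed signal was 42.4 and 63.7 for WT against 44.4 and 57.5 for IKKb(EE)IEC, so the genotypes overlapped before scaling. The normalized log2 values were -0.51 and -0.053 in WT, against -1.09 and -0.91 in IKKb(EE)IEC. After scaling both IKKb(EE)IEC arrays lay below both WT arrays. The log2 fold change was -0.72 ± 0.22 (SE, n = 2 arrays per genotype) with an adjusted p of 0.0774 by limma, which missed the threshold. Relative to the median of all genes it was -0.60. Without WT replicate 1 the value was -0.95 (adjusted p by limma = 0.00190), and without WT replicate 2 it was -0.49 (adjusted p by limma = 0.0631). In these fits the lone WT array is assumed to vary like the IKKb(EE)IEC pair, from which alone the spread comes. As 28.5% and 18.2% of all genes were then lower at the threshold, passing there is not a result about a single factor.

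Neurod1, Insm1 and Nkx2-2, which follow Neurog3 in the endocrine program, were each represented by 1 probe and not measured above background. Neurod1 (chromosome 2, 79254303 to 79254362, mm8) had a processed signal of 6.03 and 6.03 for WT against 6.38 and 6.50 for IKKb(EE)IEC, and all 4 were values the scanner software substitutes for dim spots. The Insm1 probe (chromosome 2, 145915710 to 145915769, mm8) had 12.4 on the array of WT replicate 1 and substituted values of 5.09 to 5.54 on the other 3 arrays. The Nkx2-2 probe had substituted values of 5.33 to 5.81 on 3 arrays and 8.47 on that of IKKb(EE)IEC replicate 2. Its listed position on chromosome 2 (146874593 to 146874617, mm8) spans 25 bases, against 60 for the Fev, Neurog3, Isl1, Pax4, Neurod1 and Insm1 probes. The lowest normalized log2 value of any probe well above background was -1.30 and -1.39 for WT and, for IKKb(EE)IEC, -1.83 and -1.99, while these 3 probes lay between -4.28 and -2.28. No fold is given for them, and a difference was not detectable at this signal.

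Pax4 and Pax6 are paired-box factors, Pax4 being known for serotonin- and somatostatin-producing cells and Pax6 as a regulator of the glucagon and Gip genes. The Pax4 probe (chromosome 6, 28392366 to 28392425, mm8) had a processed signal of 16.8 and 35.8 for WT against 13.8 and 42.9 for IKKb(EE)IEC, and it was well above background on 1 array of each genotype, replicate 2 in both. The spread within a genotype was larger than the difference between the genotypes. The log2 fold change was -0.69 ± 0.55 (adjusted p by limma = 0.385), and it was 0.034 without IKKb(EE)IEC replicate 1 and -1.41 without IKKb(EE)IEC replicate 2. It came to -1.17 and -0.21 when WT replicate 1 or 2 was left out (adjusted p by limma = 0.0358 and 0.715), the first below the threshold in the fit where 28.5% of all genes were lower.

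Pax6 had 3 probes on chromosome 2, none of them well above background. The probe with 10 spots (listed from 105496273 to 105497145, mm8, a span of 873 bases) gave a median spot signal of 15.9 and 11.2 for WT against 21.4 and 24.0 for IKKb(EE)IEC. Before scaling it was brighter on both IKKb(EE)IEC arrays, while after the shift the normalized log2 values were -1.94 and -2.62 for WT against -2.15 and -2.22 for IKKb(EE)IEC, so that the genotypes overlapped. The spots of this probe on the array of WT replicate 2 ranged from 5.86 to 16.2. The other 2 Pax6 probes (105484780 to 105485631 and 105497959 to 105498018, mm8) stayed between 4.94 and 9.98 on all arrays. Being below background, Pax6 was not tested.

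Isl1, a LIM-homeodomain factor required for several hormone-producing types, was measured with the most spots among the measured factors, 10 of 1 probe (chromosome 13, 117419248 to 117419307, mm8), all well above background on every array. The spots gave a median signal of 56.1 (44.4 to 63.7) and 63.7 (55.1 to 85.8) in WT, and of 58.8 (52.5 to 77.8) and 65.8 (59.6 to 73.8) in IKKb(EE)IEC. Before scaling the ranges of all 4 arrays overlapped. The standard deviation between spots of an array was 0.11 to 0.18 in log2 units.

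**Figure D1:**
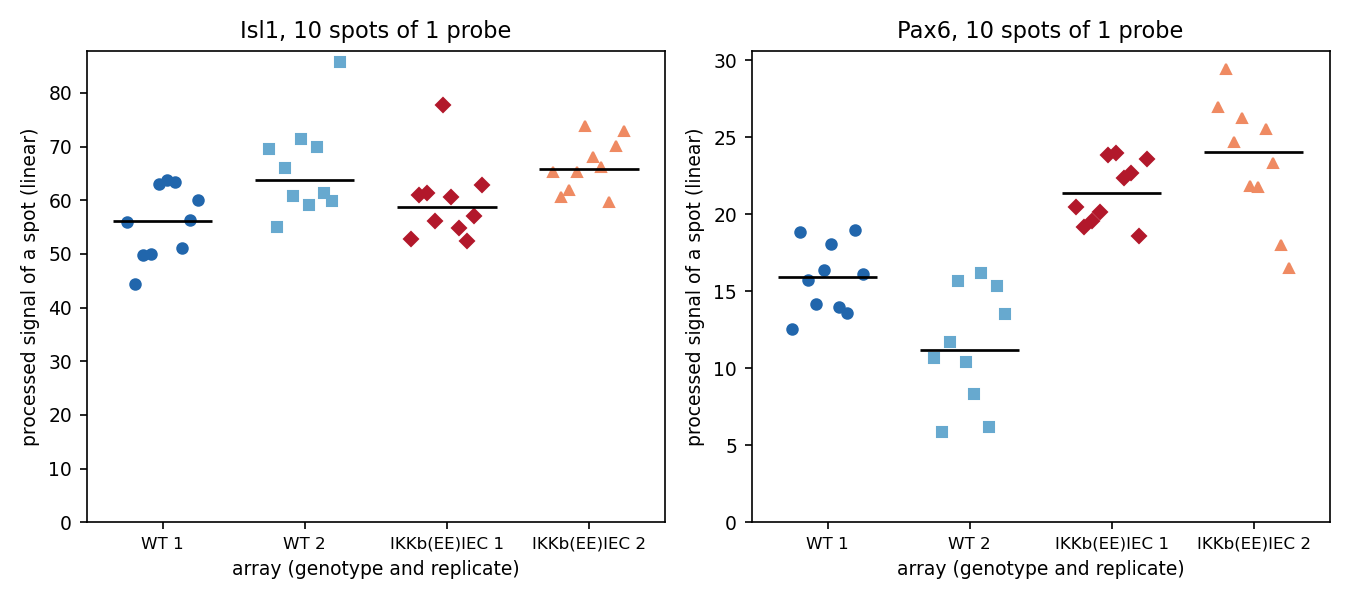
Processed signal of each of the 10 spots (linear scale, vertical axis) of the Isl1 probe and of 1 Pax6 probe on the 4 arrays (horizontal axis), before scaling between arrays; lines are medians. The Isl1 medians lie between 56.1 and 65.8 in both genotypes, and the Pax6 medians are 15.9 and 11.2 for WT against 21.4 and 24.0 for IKKb(EE)IEC, where the probe was not well above background.

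After scaling, the Isl1 values were -0.12 and -0.016 for WT against -0.67 and -0.70 for IKKb(EE)IEC. The 2 arrays of a genotype were 0.106 and 0.029 apart, and the genotypes did not overlap. The log2 fold change was -0.62 ± 0.16 (adjusted p by limma = 0.0592), which missed the threshold, and -0.50 relative to the median of all genes. It passed with a filter on genes well above background on all arrays (adjusted p by limma = 0.0449). Without WT replicate 1 or 2 it was -0.67 and -0.57 (adjusted p by limma = 0.0104 and 0.0325), in the fits with a lone WT array where 28.5% and 18.2% of all genes were lower. With the arrays aligned on the spike-ins it was -0.28, and without scaling it was 0.059, the opposite sign.

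Fev was the factor that passed. Its probe (chromosome 1, 74814893 to 74814952, mm8) had a processed signal of 136.9 and 169.3 for WT against 136.9 and 150.8 for IKKb(EE)IEC, so the genotypes overlapped before scaling. The normalized log2 values were 1.18 and 1.36 for WT against 0.53 and 0.48 for IKKb(EE)IEC, and both IKKb(EE)IEC arrays lay below both WT arrays. The log2 fold change was -0.76 ± 0.17 (adjusted p by limma = 0.0425, SE, n = 2), or 1.70-fold lower, and -0.64 relative to the median of all genes. Of all genes tested, 9.94% had a fold change this low or lower. The 2037 genes within 0.5 log2 units of its mean signal had a median of -0.067, and 9.87% of them were as low as Fev.

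The call on Fev held with quantile normalization (-0.78, adjusted p by limma = 0.0423) and in the authors' deposited table (-0.48, adjusted p by limma = 0.0392). It was lost with an array median shift (-0.71, adjusted p by limma = 0.124), with the spike-ins (-0.42, adjusted p by limma = 0.162) and without scaling (-0.084, adjusted p by limma = 0.804). The median shift fit gave Fev, Neurog3, Isl1 and Pax4 the same SE of 0.324, and Fev relative to the median of all genes stayed at -0.64. The call was also lost without IKKb(EE)IEC replicate 1 or 2 (-0.79 and -0.74). For every gene, fits without an IKKb(EE)IEC array take their spread from the WT pair alone. The WT arrays lay further apart than the IKKb(EE)IEC arrays (median absolute difference over genes 0.29 against 0.149). A fit with the replicate number as a block gave Fev the same value as reported, -0.76, with an adjusted p of 0.0580 by limma.

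**Figure D2:**
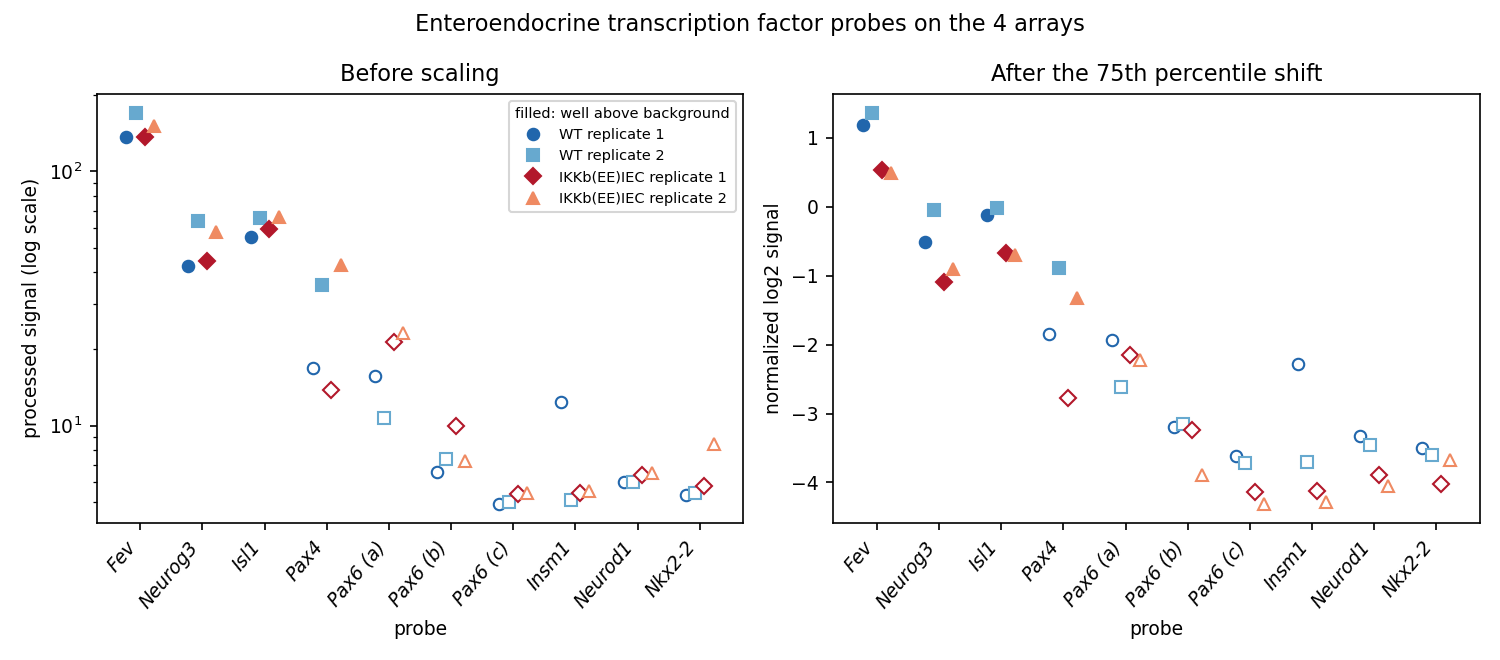
Signal of the 10 probes (horizontal axis) on the 4 arrays, as processed signal on a log scale (left) and as normalized log2 signal after the 75th percentile shift (right); filled symbols are well above background, and Pax6 has 3 probes (a to c). Fev, Neurog3 and Isl1 overlap between genotypes on the left and separate on the right, where Fev lies at 1.18 and 1.36 for WT against 0.53 and 0.48 for IKKb(EE)IEC.

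Fev, Neurog3 and Isl1 thus shared their pattern over the 4 arrays: close to equal before scaling, with differences of -0.084, -0.041 and 0.059 in log2 units, and lower in IKKb(EE)IEC by 0.62 to 0.76 log2 units after it. These 3 separated fully by genotype with the lower values in IKKb(EE)IEC, which 40.8% of all genes did, and 28.3% separated the other way. Beside shares this large, the separation of 3 factors is not a result about them. With 2 against 2 arrays only 3 splits exist, so an exact permutation test cannot go below a p of 0.333.

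**Figure D3:**
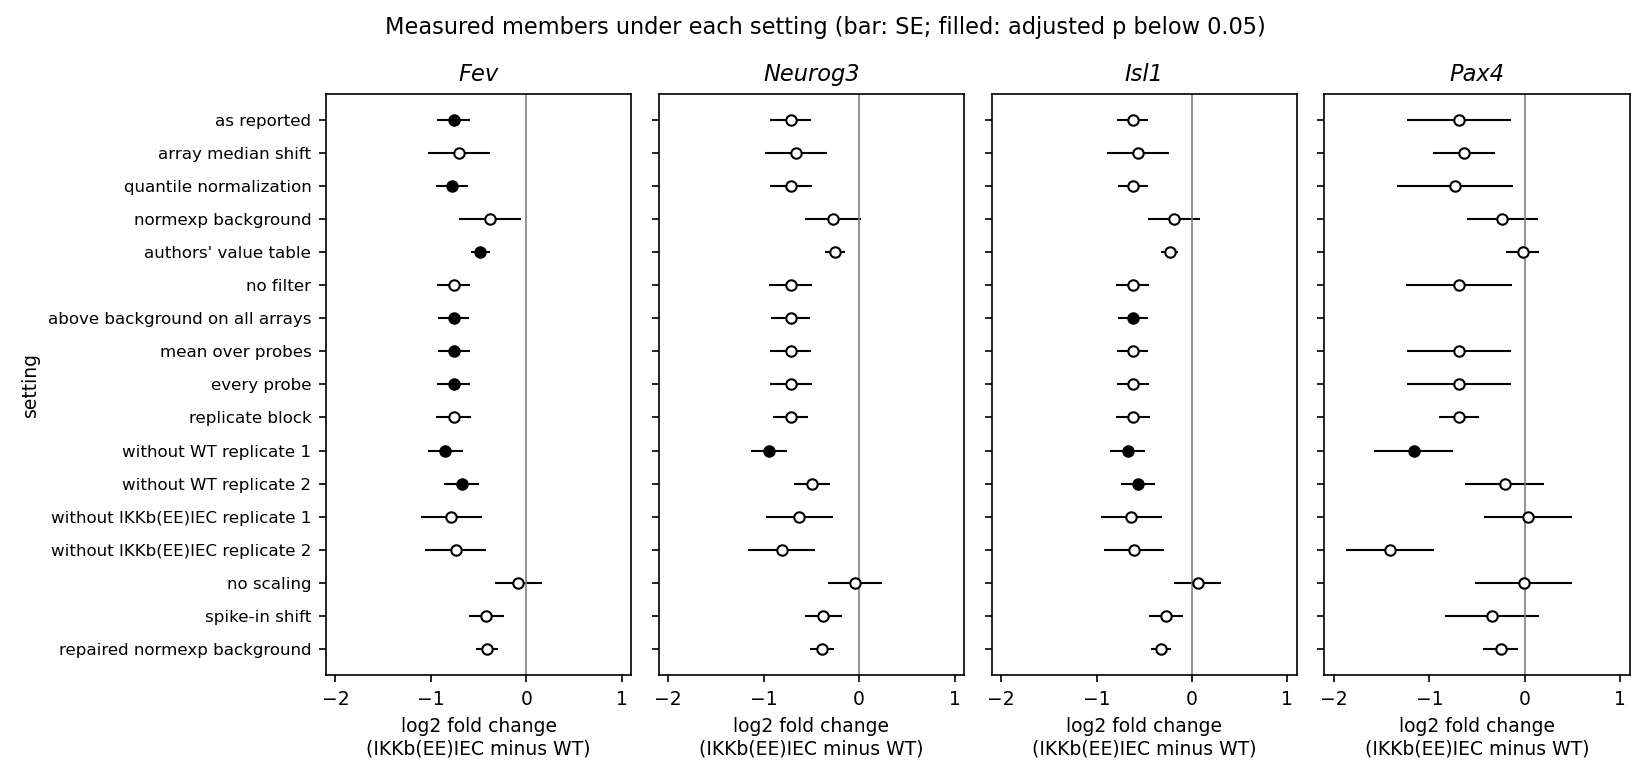
Log2 fold change (IKKb(EE)IEC minus WT, horizontal axis) of the 4 measured factors under each way of processing (vertical axis); bars are SE of the limma fit and filled symbols have an adjusted p below 0.05. Fev ranges from -0.85 to -0.084 and Pax4 from -1.41 to 0.034.

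By the rule of nearest profile, the genes most like Fev over the 4 arrays were Uqcrh, Lep, Mat2b, Kbtbd3 and Ndufb4, with root mean square differences of 0.0217 to 0.0250 log2 units after each gene was centred on its mean. Uqcrh and Ndufb4 encode subunits of mitochondrial respiratory complexes and Mat2b a subunit of methionine adenosyltransferase. Their log2 fold changes lay between -0.79 and -0.74, a closeness to Fev that follows from the way they were chosen.

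Other transcription factors of gut or pancreatic endocrine cells were mostly below background as well. Of 21 listed genes, all with a probe, 5 were measured, of which 1 fell, 0 rose and 4 did not pass, and the median was -0.41. Nkx6-1, a homeobox factor known from pancreatic beta cells, fell by 0.94 ± 0.19 (adjusted p by limma = 0.0353), in normalized log2 signal from 1.64 and 1.35 in WT to 0.63 and 0.48, without overlap. It did not pass with the spike-ins (-0.60, adjusted p by limma = 0.135) or without IKKb(EE)IEC replicate 1 or 2 (-1.02 and -0.86, adjusted p by limma = 0.214 and 0.296). Prox1, a homeobox factor, had a value of -0.59 ± 0.20 (adjusted p by limma = 0.0928) and Foxa2, a forkhead factor of endoderm, of 0.015 ± 0.20 (adjusted p by limma = 0.961). Prox1 and Foxa2 were chosen after their values were seen. The probes of Rfx6 and Pdx1 were not well above background on any array.

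The hormones and granule products, by which the mature cells are known, had values on both sides of 0, 13 negative and 6 positive. Of 24 listed genes 19 were measured, with 1 fall, 0 rises and 18 that did not pass, and a median of -0.31. The neurotensin gene Nts fell by 1.27 ± 0.19 (adjusted p by limma = 0.0178), from 3.65 and 4.004 in WT to 2.53 and 2.58, and it passed with the spike-ins too (-0.93, adjusted p by limma = 0.0287). It did not pass without IKKb(EE)IEC replicate 1 or 2 (-1.25 and -1.30). The values below were chosen after they were seen, and none passed. The general endocrine markers Chga and Chgb, which encode chromogranins, had values of 0.73 ± 0.20 and 1.24 ± 0.40, opposite in sign to the factors (adjusted p by limma = 0.0641 and 0.0868). The normalized log2 values of Chga were 2.14 and 2.35 for WT against 2.80 and 3.14 for IKKb(EE)IEC, without overlap. Those of Chgb were 4.76 and 3.56 for WT, far apart, against 5.32 and 5.47, and a second Chgb probe was not above background. Scg3, Scg5, Pcsk1 and Cpe of the same list had values of -0.40, -0.38, -0.039 and 0.016, so the list did not follow the chromogranins. Tph1, the enzyme of serotonin synthesis, had -0.11 ± 0.28, and Gcg, Gip and Sst had -0.72, -0.61 and -0.77. Other hormone genes did not follow these: Ghrl had -0.16, Sct 0.042, Tac1 0.025 and Cck 0.55 ± 0.21, while Pyy had -0.535. The normalized log2 values of Cck were 4.51 and 4.15 for WT against 4.76 and 4.999 for IKKb(EE)IEC, without overlap. The counts moved with the setting: 1 rose and 1 fell both with the median shift and with the spike-ins, 5 rose and 0 fell without scaling, 3 rose and 1 fell with the repaired normexp background, 2 rose and 1 fell in the authors' deposited table, and 0 rose and 3 fell with the mean over probes.

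**Figure D4:**
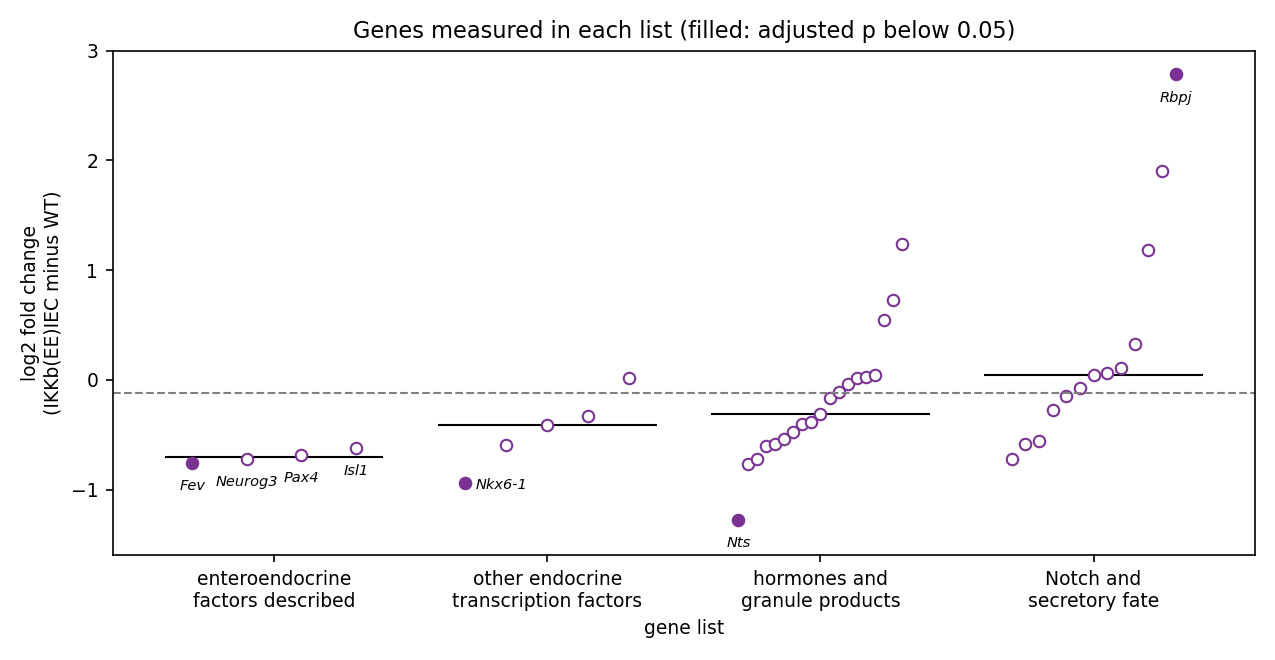
Log2 fold change (vertical axis, IKKb(EE)IEC minus WT) of each measured gene in 4 lists (horizontal axis); filled symbols have an adjusted p below 0.05, solid lines are list medians and the dashed line is the median of all genes (-0.12). The 4 measured factors lie close together between -0.76 and -0.62, while hormones and granule products spread from -1.27 to 1.24.

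The Notch pathway and the regulators of secretory fate act before the endocrine factors. Of 22 listed genes 13 were measured, with 1 rise, 0 falls and 12 that did not pass, and a median of 0.044. Of the 13, 5 (Rbpj, Dll1, Notch1, Gfi1 and Sox9) were represented by a probe well above background in IKKb(EE)IEC and on no WT array. These probes entered only through the genotype with the brighter signal. A different Sox9 probe, not the one used, did reach this level in WT replicate 1 (processed signal 33.2). It did not in WT replicate 2 (15.9). With the filter on all arrays 4 genes were left, with 0 rises and a median of -0.11. Rbpj, the DNA-binding partner of the Notch receptors, was higher in IKKb(EE)IEC, by a bound of 2.02-fold with the 75th percentile shift. Its log2 fold change of 2.78 (adjusted p by limma = 0.00294) rests on WT values not well above background, so its size was not measured. Its probe was not well above background in WT (processed signal 7.23 and 7.37) and was in IKKb(EE)IEC (86.3 and 75.02), and the bound divides the IKKb(EE)IEC mean by the lowest probe values that were well above background in WT. The log2 fold change was 0.55 in the authors' deposited table and 0.54 with the repaired normexp background, both smaller than this bound (adjusted p by limma = 0.0255 and 0.0301), and 0.41 with normexp (adjusted p by limma = 0.9998). Atoh1, the factor that opens the secretory fate, was not well above background on any array. Further pathway genes chosen after their values were seen, the ligand Dll1 and the receptor Notch1, were measured in IKKb(EE)IEC only. Their bounds were 2.23-fold and 1.05-fold higher. Their log2 fold changes of 1.90 and 1.19 (adjusted p by limma = 0.0615 and 0.0748) did not pass and rest on WT values not well above background.

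Markers of intestinal epithelium, enteric neurons and glia, pancreas and liver were looked at beside the results. All 10 markers of intestinal epithelium were well above background on all arrays, among them Epcam, Vil1 and Cdx2, with a median of 0.19. Their summed normalized level was lower in IKKb(EE)IEC, 4076.5 and 4414.1 against 7970.3 and 10812.8 in WT. The brightest gene, Fabp2, carried most of this sum (normalized log2 12.7 and 13.2 in WT against 11.3 and 11.4 in IKKb(EE)IEC). Of the 10 fold changes, 6 were positive and 4 negative. The fatty acid binding protein gene Fabp2 fell by 1.56 ± 0.23 (adjusted p by limma = 0.0161), but had -0.32 with quantile normalization (adjusted p by limma = 0.375). Enteric neurons and glia, in which Isl1 can be active, had 4 of 16 markers above background on all arrays (S100b, Sox10, Tubb3 and Uchl1). Their median was -0.42 with no call (Uchl1 -0.44 and Tubb3 -0.40, adjusted p by limma = 0.128 and 0.155), while Elavl4 was not above background on any. The summed normalized level of that list was 9.43 to 9.71 in WT and 6.36 to 7.47 in IKKb(EE)IEC. Tubb3 was its brightest gene (processed signal before scaling 283.9 and 273.2 for WT against 325.4 and 353.1 for IKKb(EE)IEC). Pancreatic islet markers were measured in 4 of 9 cases, and the islet amyloid gene Iapp fell by 0.82 ± 0.16 (adjusted p by limma = 0.0339). Iapp did not pass with the median shift (-0.77, adjusted p by limma = 0.0883), the spike-ins (-0.48, adjusted p by limma = 0.135), no scaling (-0.14), no filter (-0.82) or either normexp form (-0.26 and -0.42), nor in the authors' deposited table (-0.37, adjusted p by limma = 0.0531). Ins1 gave a signal above background in WT replicate 1 only. The summed level of the islet list was 14.6 to 23.6 in WT and 20.1 to 27.4 in IKKb(EE)IEC. Its brightest gene, Slc2a2, carried most of this sum (log2 fold change 0.66 ± 0.35, adjusted p by limma = 0.216). The other 3 measured islet genes had negative values (Iapp -0.82, Nkx6-1 -0.94 and Ins2 -0.48). Acinar markers were above background for 5 and 7 of 15 genes in WT and for 6 and 6 in IKKb(EE)IEC, with a summed level of 204.8 to 471.1 in WT and 30.1 to 32.9 in IKKb(EE)IEC. In that list Clps, its brightest gene, and Pnliprp2 fell by 4.01 ± 0.43 and 3.65 ± 0.84, and Pnliprp1 was at least 2.97-fold lower (adjusted p by limma = 0.00644, 0.0451 and 0.04999). Pnliprp1 was well above background in WT and on no IKKb(EE)IEC array, so it entered only through the genotype where it was higher. Its bound divides the WT mean by the lowest values well above background in IKKb(EE)IEC. The log2 fold change was -0.62 in the authors' deposited table and -0.92 with the repaired normexp background, both smaller than this bound. Without IKKb(EE)IEC replicate 1 or 2 neither Fabp2 (-1.52 and -1.597), Iapp (-0.82 both times), Pnliprp2 (-3.71 and -3.60) nor Pnliprp1 (-2.94 and -1.88) passed. Without WT replicate 1 or 2 Pnliprp2 had values of -2.29 and -5.02 and Pnliprp1 of -1.64 and -3.18. Neither passed in the authors' deposited table (-2.08 and -0.62), with the spike-ins (-3.31 and -2.07) or without a filter. Liver markers were above background for 5 of 7 genes on the array of WT replicate 2 and for 1 on each of the others, with a summed level of 3.39 and 13.8 in WT and 1.87 to 2.24 in IKKb(EE)IEC. Of these Tat alone was tested (-0.56, adjusted p by limma = 0.121). The part of neural, pancreatic or liver RNA in the values of Fev, Neurog3, Isl1 and Pax4 was not tested. Without WT replicate 2 the values of Fev, Neurog3, Isl1 and Pax4 were -0.68, -0.49, -0.57 and -0.21. Without WT replicate 1, the WT array with the higher acinar sum, they were -0.85, -0.95, -0.67 and -1.17. With all arrays they were -0.76, -0.72, -0.62 and -0.69.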

How the data were processed

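Cy3-labelled cRNA of 4 samples was hybridised to 1 array each, per the labels' protocols. Per the file headers, Feature Extraction 9.5.3.1 of Agilent made the deposited intensities, of which the processed signal is background-subtracted, detrended and not normalized between arrays. The spot flags (other columns) are as deposited, and the authors' value table holds linear intensities normalized between arrays (how is not stated in the labels), with array medians of 111.5 to 112.0. All arrays lie on 1 slide, so position and genotype cannot be told apart. 34.3% to 41.1% of spots were well above background.

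Each array's 75th percentile was subtracted from its log2 processed signal, control and outlier spots were left out, spots of a probe were averaged, probes well above background on at least 2 arrays were kept, and the brightest probe stood for a gene. Names follow RefSeq accessions (GRCm38.p6 table) for 24375 probes. Genotypes were compared with limma 3.58.1 in R 4.3.3 (lmFit and eBayes, two-sided), and the script was tested on simulated data. Probe positions are as the files list them (mm8), and exon or UTR was not looked up. Promoter windows came from RefSeq for 6 of the 8 genes.

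The factors, lists and rules were chosen with earlier results of these data known, and some genes of the lists are not reported here. Named were all factors and, from each list, up to 4 passing genes by size of change or, with none passing, up to 2 by p, plus the 5 genes nearest to the leading factor. The settings tried were other scalings, backgrounds, filters, probe rules, a replicate block and leaving out each array. The unscaled, spike-in and repaired normexp settings were added after seeing the data.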

Additional observations from a re-analysis of the deposited data

How the results depend on the processing

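The counts over all genes and the medians of the lists moved with the processing, and the direction of Fev, Neurog3 and the median of the 4 measured factors was negative in all settings run. limma called 1893 genes as reported, 843 without a filter, 4989 without scaling and 0 with the normexp background (171 at an unadjusted p below 0.05), whose fit was thrown off by 8 spots with a local background above the spot (1965 genes without these spots). Leaving out an array gave 247 to 6175. Fev did not pass with the median shift (-0.71), normexp and its repaired form (-0.38 and -0.41), no filter (-0.76, more genes tested), the replicate block (-0.76), no scaling (-0.084) and the spike-ins (-0.42), and ranged from -0.85 to -0.68 without 1 array. In all, Fev lost its call in 9 of 16 alternatives. Isl1 passed with a filter on all arrays (-0.62), ranged from -0.67 to -0.57 without 1 array and turned to 0.059 without scaling. Neurog3 ranged from -0.95 to -0.49 and Pax4 from -1.41 to 0.034 without 1 array. The signs of Uchl1, Tubb3 and Tat turned without scaling (0.24, 0.28 and 0.12).

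The median of the 4 measured factors was -0.26 with normexp, -0.36 with its repaired form, -0.24 in the authors' deposited table, -0.026 without scaling, -0.36 with the spike-ins and -0.90 to -0.53 without 1 array. That of other endocrine factors was -0.097, -0.22, -0.12, 0.27, -0.067 and -0.61 to -0.26 in the same order. That of hormones and granule products was -0.12, -0.17, -0.061, 0.36, 0.030 and -0.34 to -0.24, and -0.26 with the median shift and -0.24 with the filter on all arrays. That of the Notch list was -0.020, -0.048, 0.085, 0.72, 0.39 and -0.009 to 0.12, and 0.099 with the median shift and -0.11 both without a filter and with the filter on all arrays. Other than by the scalings' own construction, the cause was not tested. Same-numbered samples share only a number (correlation of their deviations 0.108 over genes), and the replicate block called 1500 genes.

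Signal over background limits 5 of the 8 factors: Pax4 was measured on 2 arrays and Neurod1, Insm1, Nkx2-2 and Pax6 on none. The lowest value of each array in the authors' deposited table was 66.2 to 68.5. Fev, Neurog3, Isl1 and Pax4 had -0.48, -0.25, -0.23 and -0.024 there, all smaller in size than as reported, and the cause was not tested.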

Other observations

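Relatives of the 8 factors that are known from other tissues were looked at as well, a list of 18 genes chosen after the data were seen. Of these, 6 were well above background on all 4 arrays and 12 on none. Insm2, the relative of Insm1, had a processed signal of 49.9 and 76.5 for WT against 43.4 and 43.3 for IKKb(EE)IEC and a log2 fold change of -1.19 ± 0.22 (adjusted p by limma = 0.0309). Neurog1 and Neurod2, basic helix-loop-helix factors known from the nervous system, had -0.81 and -0.82 (adjusted p by limma = 0.04999 and 0.0476), and a second Neurod2 probe was not above background. Before scaling Neurog1 had a signal of 351.8 and 435.0 for WT against 376.3 and 340.5 for IKKb(EE)IEC, so the genotypes overlapped as they did for Fev. Without IKKb(EE)IEC replicate 1 or 2 none of these 3 passed: Insm2 had values of -1.29 and -1.10, Neurog1 of -0.97 and -0.64, and Neurod2 of -0.96 and -0.67. They did not pass with the spike-ins either (-0.85, -0.46 and -0.47 in the same order). With the replicate block the adjusted p by limma was 0.0656 for Neurog1 and 0.0638 for Neurod2, and with the median shift 0.0976 and 0.0915, so that neither passed, while Insm2 did in both (0.0425 and 0.00487). Nkx2-6 (-0.61), Pax2 (-0.55) and Nkx2-3 (-0.35) missed the threshold. The median of these 6 was -0.71, next to -0.70 for the 4 measured endocrine factors. Whether probes of the relatives read their own transcripts was not tested.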
